A study of Mus musculus with 32 samples.

Results

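The data described here are the total RNA of mouse embryos cultured with A-485, a small-molecule inhibitor of the acetyltransferase activity of CBP and p300, at the zygote (1-cell) stage and at the early 2-cell stage. Every RNA-seq library of these stages with that label was taken, 2 per stage, which makes 4 of the 16 RNA-seq libraries and 4 of the 32 samples of the series. The series profiled histone H3 lysine 27 acetylation, open chromatin and RNA in early embryos and asked, for this experiment, which RNAs depend on CBP/p300 activity. All embryos used here were wild type and came from in vitro fertilization of B6D2F1/J oocytes with B6D2F1/J sperm, both from mice 6 to 8 weeks old. A-485 was given at 10 µM from 4 to 20 h after fertilization (hpi), and zygotes may have been collected before the end of that window. Embryos treated with DMSO, 2 libraries per stage, gave the same transition without the inhibitor and shared no library with the A-485 embryos. Each library was made from several whole embryos, and the labels give neither their number, nor the hour of collection, nor whether the replicates came from separate fertilizations. The p-values therefore measure only the spread between these libraries.

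At fertilization the embryo runs on RNA that the oocyte stored. Across the first cell divisions much of this maternal RNA is degraded, while the new genome starts transcription, first at a low level in the zygote and early 2-cell embryo (minor zygotic genome activation, ZGA) and then broadly in the late 2-cell embryo. CBP and p300 are paired enzymes that acetylate histones, including H3 lysine 27, at promoters and enhancers, and that serve as coactivators of many transcription factors.

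The A-485 zygote libraries held 32585987 and 31548751 expected counts and the A-485 early 2-cell libraries 22393323 and 23864414. Genes with at least 1 count numbered 18917 and 19588 in A-485 zygotes and 21960 and 23408 in A-485 early 2-cell embryos, against 22375 and 20852, then 21606 and 22108, with DMSO. The 13 mitochondrially encoded protein genes took 0.867 and 0.795% of counts in A-485 zygotes and 2.50 and 2.24% in A-485 early 2-cell embryos. Summed FPKM (fragments per kilobase of transcript scaled to the mapped fragments) of 12 oocyte and zygote markers lay between 6607 and 6790 in the 4 libraries. Even so, 8 of the 12 were called lower at early 2-cell and none higher, with a median log2 change of -1.61. Markers of cumulus cells summed to 3.09 to 6.79 FPKM, with Cyp19a1 called lower, fibroblast markers to 0.42 to 2.05, with Pdgfra called higher (0.14 and 0.32, then 1.12 and 1.22 FPKM), red blood cell markers to 0 to 0.97, and sperm markers to 7.92 to 15.8. Of these 4 contaminant lists, 3 cumulus, 3 fibroblast, 4 red blood cell and 3 sperm genes were at 0 counts in all 4 A-485 libraries, and their part in the results below was not tested. The sum of 2-cell embryo markers went against the label, from 259 and 287 FPKM in A-485 zygotes to 90.8 and 94.8 at early 2-cell, whereas with DMSO it went from 268 and 294 to 705 and 628. Of these markers 5 of 10 tested were called higher with A-485 and 2 lower, Zscan4d and Sp110, and Sp110 alone held 232 and 253 FPKM of the A-485 zygote sums. The enzymes that A-485 blocks stayed present as RNA. Crebbp, which encodes CBP, measured 227 and 207 FPKM in A-485 zygotes and 306 and 319 at early 2-cell, and Ep300, which encodes p300, 26.5 and 24.1, then 31.5 and 32.2. Neither change reached 2-fold, and with the mitochondrial scaling described below both turned, to -0.98 and -1.28 on the log2 scale.

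A gene was called where the quasi-likelihood test of edgeR on counts gave an adjusted p under 0.05, the fold change was at least 2, and the mean reached 1 FPKM in either stage. With A-485, 1360 of 19858 tested genes were higher at early 2-cell than at zygote (6.85% of those tested) and 3103 were lower (15.6%). With DMSO, 2257 of 20106 were higher (11.2%) and 3002 lower (14.9%). Fewer genes rose with A-485 while falls were about as many. The 2380 genes that fell in both treatments were 76.7% of the A-485 falls and 79.3% of the DMSO falls. The 716 genes that rose in both were 52.6% of the A-485 rises and 31.7% of the DMSO rises. The difference between the transitions was tested directly as an interaction over the 8 libraries. It was lower with A-485 for 849 of 23002 genes (3.69%) and higher for 72 (0.313%).

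All of these values are relative to the other RNA of the library, since RNA per embryo was not measured. As in any bulk library, less RNA per cell and fewer cells holding the RNA cannot be told apart. The main scaling (TMM) assumes that most genes keep their share. Scaling to the mitochondrially encoded protein genes instead, which were themselves a larger share of the RNA at early 2-cell, moved the median change of the 12460 genes with at least 1 FPKM by -1.70 on the log2 scale. Calls then became 289 higher and 9491 lower, so that 3.0% of calls were rises, against 30.5% with TMM. A rise below is a rise relative to the bulk of the RNA. Stage also cannot be told apart from any difference in how the zygote and early 2-cell libraries were prepared. The same holds for the time spent in A-485, which may have been shorter for the zygotes.

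**Figure D1:**
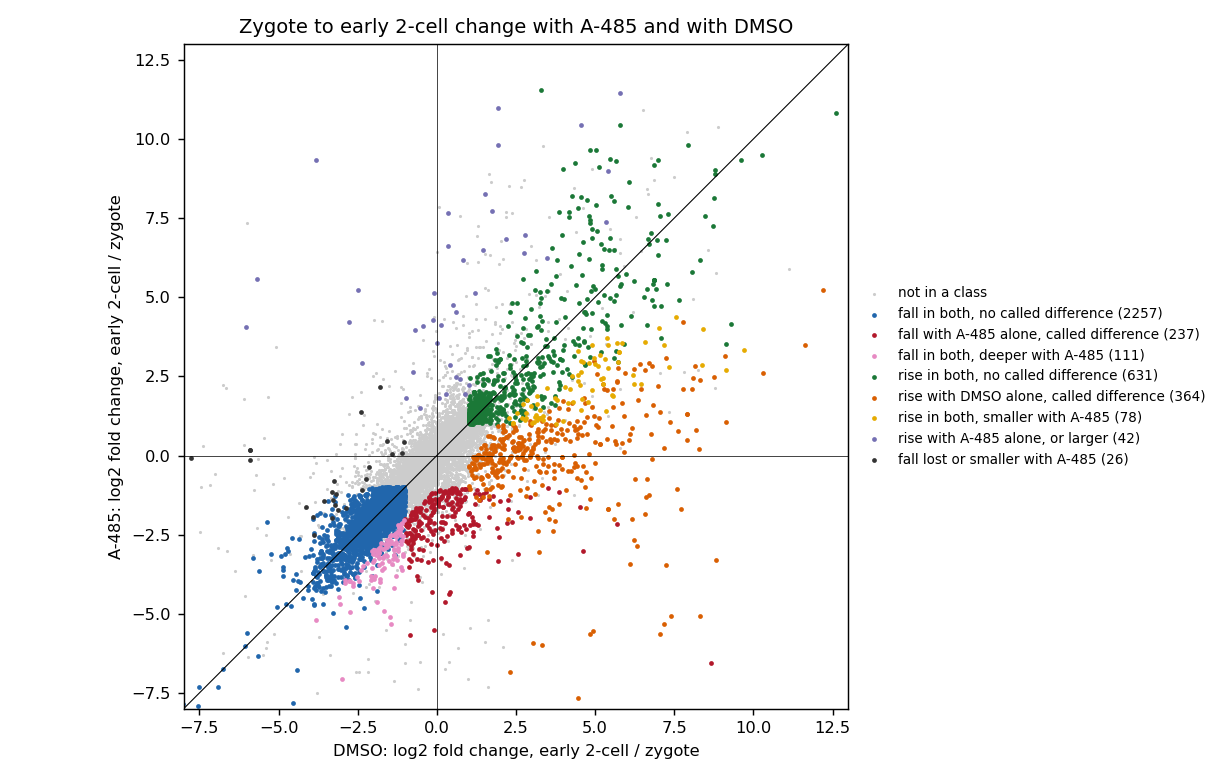
Each point is a gene, placed by its log2 fold change from zygote to early 2-cell with DMSO (x axis) and with A-485 (y axis), and the line marks equal change. The 2257 genes that fell in both without a called difference lie along the line at lower left, and rises called with DMSO alone lie at the right below the line (numbers in the key count the points drawn, which need a test in both treatments).

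The genes were sorted by their calls in both transitions and by the interaction. Genes called in 1 treatment only, without a called difference, stayed undecided. They were 1118 rises and 608 falls called with DMSO, and 608 rises and 486 falls called with A-485. A total of 2257 genes fell in both treatments with no called difference, and their median log2 change was -1.82 with A-485 and -1.83 with DMSO. Zfp57, a zinc finger protein that protects imprinted methylation, was among the most abundant, with 1817 and 1820 FPKM in A-485 zygotes and 600.5 and 660 at early 2-cell. Its log2 change was -1.35 ± 0.05 (SE), and with DMSO it was -1.45. Hsp90aa1, a cytosolic chaperone, went from 1452 and 1462 FPKM to 171 and 180, a log2 change of -2.84 ± 0.05. Ssb, the La protein that binds new RNA polymerase III transcripts, went from 992 and 967 FPKM to 70.4 and 52.99. Slbp, which binds the stem-loop of histone mRNA, went from 937 and 920 FPKM to 337 and 317, and Kif23, a kinesin of the midbody, from 855 and 891 to 126 and 123. In each of these 5 genes the A-485 stages did not overlap, and the early 2-cell level with A-485 was at 52.99 to 660 FPKM where DMSO gave 83.9 to 651.

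Many RNAs that the oocyte makes and stores also fell with the enzymes blocked. Of 27 tested genes of the subcortical maternal complex and other maternal-effect genes, 16 fell and 2 rose with A-485 (59.3% and 7.4%). The share of rises was near the 6.85% over all genes tested, of which 15.6% fell. The median log2 change was -1.16, beside 0.14 over all genes tested. With DMSO 15 fell and the median was -1.09. The summed FPKM of the list did not fall, at 13220 and 13040 in A-485 zygotes and 14680 and 14330 at early 2-cell. Zar1l, a zygote arrest protein, had 275 and 267 FPKM in A-485 zygotes and 12.9 and 14.1 at early 2-cell, the deepest of the list at -4.12 ± 0.10. Padi6 and Nlrp5, members of the complex, changed by -2.78 ± 0.07 and -2.59 ± 0.06, and Dnmt1, the maintenance DNA methyltransferase, by -2.85 ± 0.07. Of 27 genes for oocyte-secreted proteins, the zona pellucida and oocyte transcription factors, 13 fell and 3 rose (48.1% and 11.1%). Oosp2, an oocyte-secreted protein, went from 202 and 180 FPKM to 30.8 and 33.6, and Figla, a transcription factor of the oocyte, from 14.8 and 10.1 to 2.63 and 1.92. None of these 27 genes was called in the interaction, and the median difference between the treatments was 0.15.

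Of 44 tested factors that remove maternal mRNA, 12 fell and 3 rose with A-485. The rises, 6.8%, equal the share over all genes, and the falls, 27.3%, stand beside 15.6%. The median was 0.02 (-1.67 with mitochondrial scaling). Pabpn1l, a poly(A)-binding adaptor of maternal RNA decay, fell from 103 and 109 FPKM to 5.51 and 6.28, and Mettl14, a subunit of the RNA adenosine methyltransferase, from 33.4 and 32.2 to 3.95 and 3.41. Tut4, a terminal uridylyltransferase, rose from 0.12 and 0.20 FPKM to 2.47 and 2.49, and with DMSO from 0.26 and 0.80 to 6.69 and 3.51.

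Subunits of the proteasome, the protease that degrades ubiquitinated proteins, had the lowest median of the lists, -2.24 with A-485 and -1.72 with DMSO. With A-485 22 of 31 fell and 2 rose (71.0% and 6.5%), beside 15.6% and 6.85% of all genes tested. Psmc1 went from 197 and 172 FPKM to 14.9 and 14.2 and Psmc5 from 67.4 and 69.9 to 5.11 and 5.96. Psmd12 fell in both treatments and further with A-485, from 63.6 and 62.4 FPKM to 3.52 and 3.22, where DMSO left 8.69 and 8.73. Nuclear genes of the respiratory chain fell in 36 of 75 cases (48.0%) with a median of -1.15, and spliceosome proteins in 28 of 59 (47.5%) with a median of -0.98. Among 48 genes of the meiotic and early mitotic cell cycle 22 fell and 4 rose (45.8% and 8.3%). Cdc25a, a phosphatase that activates cyclin-dependent kinases, fell by 2.81 ± 0.10 on the log2 scale with A-485 and by 2.71 with DMSO, with no called difference. Fbxo5, an inhibitor of the anaphase-promoting complex, went from 93.5 and 134 FPKM to 8.43 and 7.71 with A-485 and only to 39.2 and 18.7 with DMSO. Of 30 genes of histone acetyltransferases and deacetylases, 7 fell and 1 rose, 23.3% and 3.3% beside 15.6% and 6.85% of all genes, with a median of -0.12. Among the falls was Hat1, from 26.7 and 28.8 FPKM to 3.65 and 4.46.

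**Figure D2:**
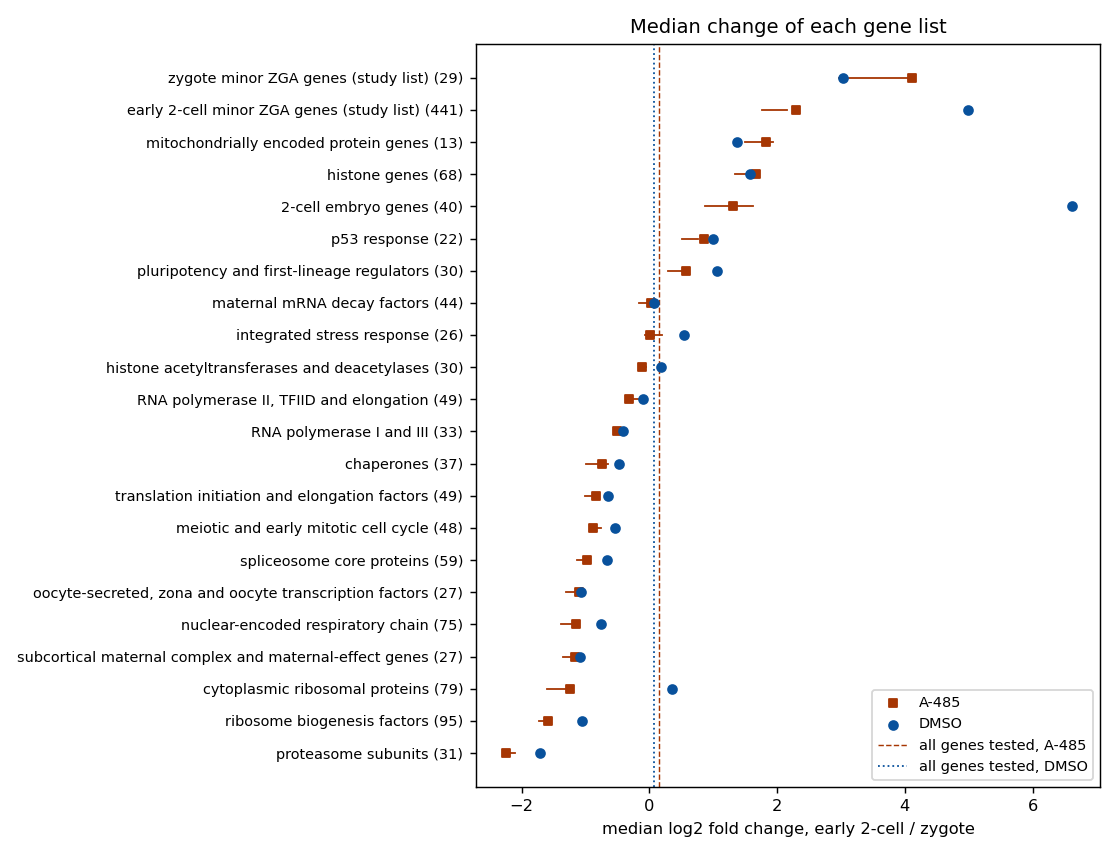
Median log2 fold change from zygote to early 2-cell of each gene list (number of genes tested with A-485 in parentheses) with A-485 (squares, with a line for the range over the 4 pairings of 1 early 2-cell with 1 zygote library on log2 values) and with DMSO (circles). With A-485 the squares of the proteasome, ribosomal protein, ribosome biogenesis and maternal-effect lists lie below -1, left of the median of all genes (dashed line), while with DMSO the circle of ribosomal proteins lies at 0.35, right of the dotted line.

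A further 111 genes fell in both treatments and deeper with A-485. Another 237 were called as falls with A-485 but not with DMSO, and 39 of them rose with DMSO. Both groups had a called difference. In the first group the median FPKM went from 40.1 in A-485 zygotes to 3.59 at early 2-cell, and with DMSO from 37.9 to 10.5. In the second group it went from 8.64 to 2.23 with A-485 and from 8.36 to 9.71 with DMSO. The zygote levels of both groups were thus near each other in the 2 treatments, and the early 2-cell levels apart.

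Genes of the ribosome and its assembly were numerous among them. Of the 79 cytoplasmic ribosomal protein genes, 41 fell and 6 rose with A-485 (51.9% and 7.6%), against 18 fallen and 26 risen with DMSO. Over all genes tested 15.6% fell and 6.85% rose with A-485, and 14.9% fell and 11.2% rose with DMSO. The medians of the list were -1.25 and 0.35. The interaction was lower with A-485 for 36 of the 79 and higher for none, beside 3.69% lower and 0.313% higher over all genes. With mitochondrial scaling the A-485 median was -2.96 and the median difference remained negative, -1.80 beside -1.47. Rpl19 had 143 and 139 FPKM in A-485 zygotes and 9.35 and 9.33 at early 2-cell, a log2 change of -3.84 ± 0.13, and 112 and 117, then 16.9 and 23.8, with DMSO. Rpl23a went from 291 and 257 FPKM to 19.2 and 21.9 with A-485 and from 254 and 251 to 108 and 110 with DMSO. The early 2-cell libraries did not overlap between the treatments in either gene. Rpl24 and Rpl21 fell by 3.15 ± 0.21 and 3.12 ± 0.17 on the log2 scale with A-485. Rplp0, a protein of the ribosomal stalk, showed the other form of the same difference. It measured 38.4 and 46.0 FPKM in A-485 zygotes and 38.3 and 40.0 at early 2-cell, while with DMSO it rose from 39.0 and 42.2 to 121 and 118. Of the 79 genes, 9 fell deeper, 15 fell with A-485 only, 11 lost a rise and 1 had a smaller rise. The 15 include genes that rose with DMSO.

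Since many ribosomal protein genes differed in 1 direction, the promoters of 2 of them are shown, as the 100 bases before the RefSeq start on GRCm38.p6, 5′ to 3′ on the strand of the gene, with capitals for CCGGAAG (the core bound by ETS-family factors) or CCAAT (the core bound by NF-Y) on either strand. Rpl19 lies at chr11:98026610-98026709 (plus strand) and Rplp0 at chr5:115559367-115559466 (plus strand).
Rpl19: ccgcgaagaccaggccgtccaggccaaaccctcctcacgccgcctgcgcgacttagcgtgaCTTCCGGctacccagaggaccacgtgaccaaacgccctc
Rplp0: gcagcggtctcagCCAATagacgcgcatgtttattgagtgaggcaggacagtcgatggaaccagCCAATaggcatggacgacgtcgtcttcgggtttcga
CCGGAAG was present on either strand in the window from 250 bases before to 50 after the start in 23 of the 58 ribosomal protein genes matched to a promoter, 39.7% (95% Wilson interval 28.1 to 52.5%, counting error only), and in 9.1% of all 27025 promoters of that length. By class it was in 32.6% of promoters of the deeper falls (86 matched), 29.2% of the falls with A-485 only (185), 24.3% of the falls in both (1753), 13.3% of the rises in both (405) and 15.7% of all genes tested (12927). Rises lost with A-485, which were also lower in the interaction, had it in 13.3% (255), as the rises in both. Rises that were smaller with A-485 had it in 18.5% (54), and rises with A-485 only in 15.8% (19). Rplp0 holds no CCGGAAG in this window.

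Ribosome biogenesis factors, which make and assemble ribosomal subunits in the nucleolus, fell in 69 of 95 cases with A-485 (72.6%) and rose in none. With DMSO 49 fell and 6 rose, and the medians were -1.58 and -1.05. The interaction was lower for 21 of the 95, beside 3.69% of all genes. Gnl2, a nucleolar GTPase, went from 113 and 102 FPKM to 1.98 and 4.29, the largest fall among the genes named here at -5.19 ± 0.17, while with DMSO it went from 91.3 and 97.4 to 6.29 and 7.51. Nop58, a core protein of box C/D small nucleolar particles, went from 162 and 130 FPKM to 23.9 and 14.3 with A-485 and from 119 and 127 to 81.1 and 70.6 with DMSO. Bms1, a GTPase of the small-subunit processome, fell in both with no called difference, from 356 and 369 FPKM to 11.0 and 12.6 with A-485 and to 13.4 and 13.7 with DMSO. The nucleolar genes thus held both falls that differed between treatments and falls that were not called different. The same mixture stood among polymerase genes. Polr2k, a subunit common to the 3 nuclear RNA polymerases, went from 44.6 and 40.2 FPKM to 1.23 and 1.24 with A-485 and from 47.8 and 42.4 to 7.06 and 6.36 with DMSO. Gtf2f1, the large subunit of TFIIF, went from 81.5 and 82.9 FPKM to 4.47 and 7.93, where DMSO left 45.1 and 34.9. Taf1b, a subunit of the RNA polymerase I selectivity factor, fell in both, to 0.81 and 2.43 FPKM with A-485 and to 3.29 and 4.35 with DMSO. Of 33 genes of RNA polymerases I and III 13 fell and 2 rose with A-485 (39.4% and 6.1%), and 9 fell and 8 rose with DMSO. Of 49 genes of RNA polymerase II, TFIID and elongation 14 fell and 5 rose with A-485 (28.6% and 10.2%), and 8 fell and 6 rose with DMSO. Over all genes tested with A-485 the shares were 15.6% lower and 6.85% higher.

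The most abundant genes that fell with A-485 only included Calr, a calcium-binding chaperone of the endoplasmic reticulum. It had 319 and 325 FPKM in A-485 zygotes and 63.9 and 64.4 at early 2-cell, and with DMSO 276 and 303, then 140 and 135. Its fall with DMSO was at the 2-fold limit, so it counts as a fall with A-485 only by a narrow margin. Leaving out DMSO early 2-cell replicate 1 or DMSO zygote replicate 1 took its difference of -1.04 to -0.963 or -0.985, under the 2-fold limit. Sp110, a nuclear body protein, went from 232 and 253 FPKM to 54.5 and 61.5 with A-485 and to 144 and 120 with DMSO. Atpif1, the inhibitor of mitochondrial ATP synthase, went from 133 and 110 FPKM to 18.3 and 14.0 with A-485 and to 59.3 and 61.8 with DMSO. Hspa8, the constitutive cytosolic Hsp70, fell in both treatments, to 21.7 and 20.4 FPKM with A-485 and to 78.2 and 63.0 with DMSO, from 169 to 203 in all 4 zygote libraries. Cphx1, a homeobox gene of the early embryo, went from 205 and 178 FPKM to 0.34 and 9.57 with A-485. Its 2 early 2-cell libraries were far apart, and both lay below the DMSO values of 34.7 and 77.2.

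**Figure D3:**
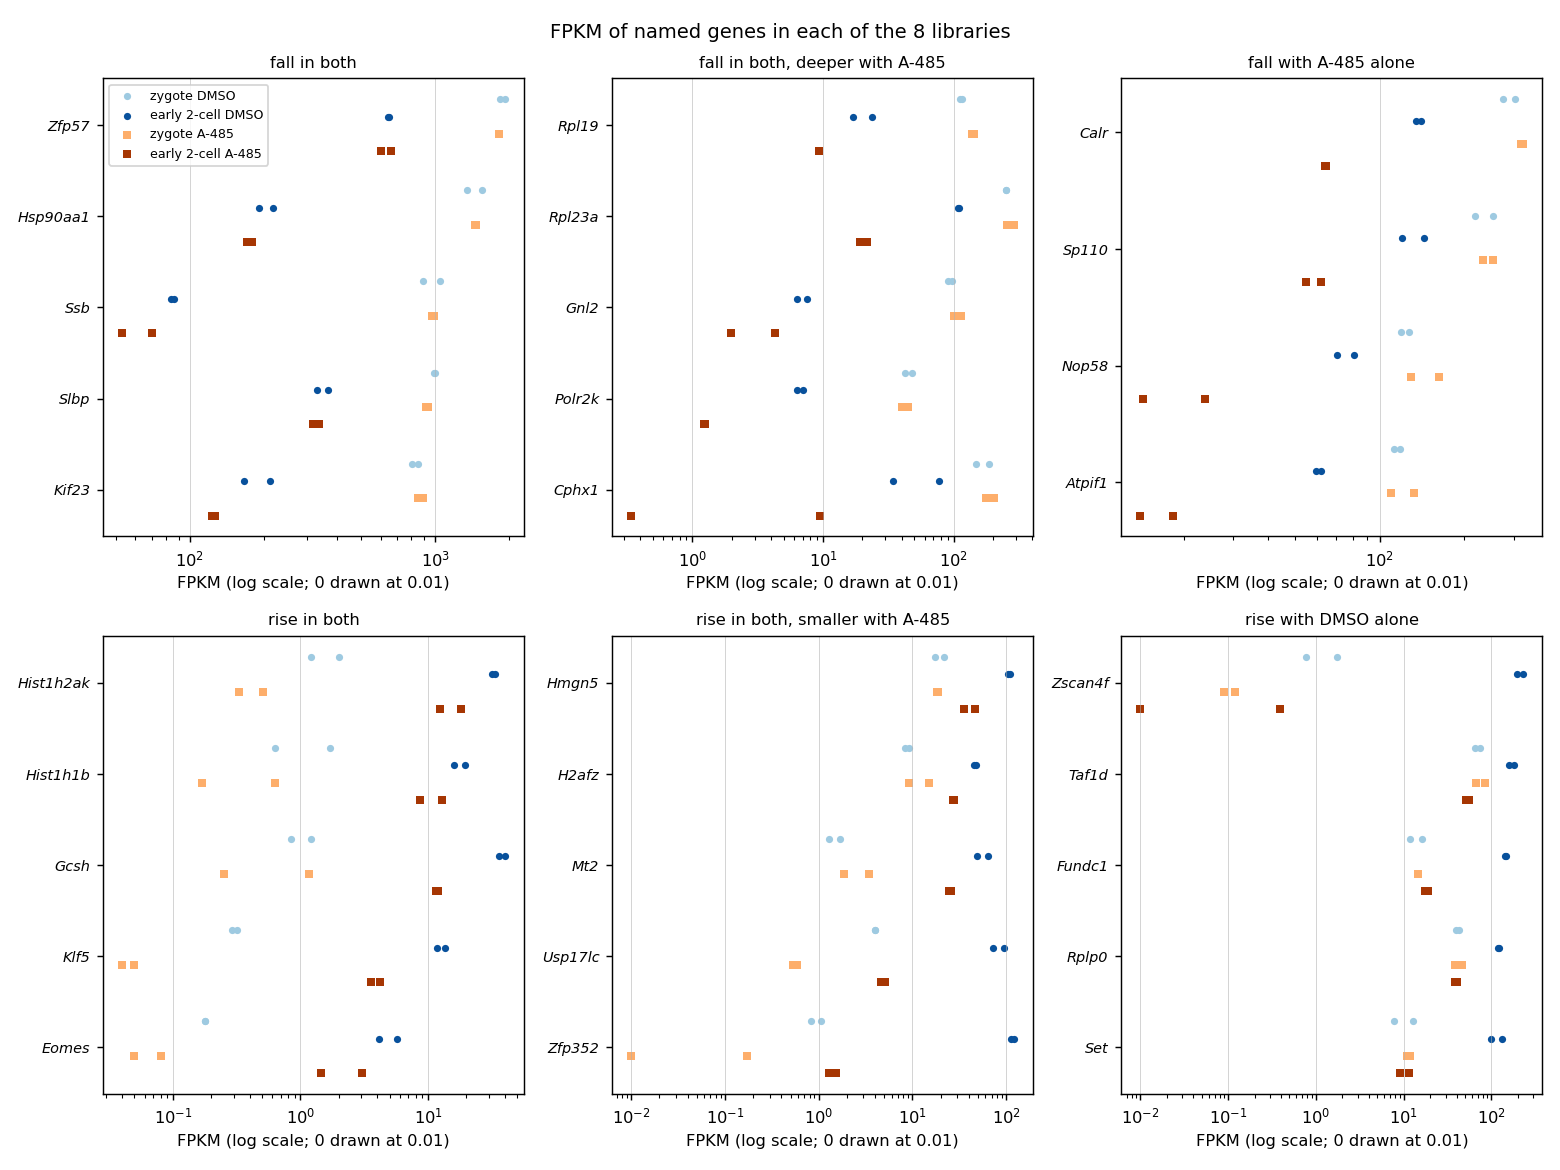
FPKM on a log axis of named genes in each of the 8 libraries (circles DMSO, squares A-485; light zygote, dark early 2-cell), in 6 panels by class of change. For Rpl23a, Calr and Nop58 the dark squares lie left of the dark circles while the light symbols lie near each other, and for Taf1d, Fundc1, Rplp0 and Set the dark squares stay by the light ones.

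Rises called with DMSO, called in neither direction with A-485 and lower in the interaction numbered 384. Their median FPKM was 1.01 in A-485 zygotes and 0.905 at early 2-cell, against 1.04 and 11.9 with DMSO. Not among them are the 39 genes that rose with DMSO and fell with A-485, counted above with the falls. Nor are the 1118 undecided rises called with DMSO, the largest group of rises. The median FPKM of the undecided 1118 was 0.075 in A-485 zygotes and 0.4325 at early 2-cell, against 0.18 and 3.075 with DMSO. Zscan4f, a zinc finger gene of 2-cell embryos and of telomere maintenance in embryonic stem cells, was listed at 0.09 and 0.12 FPKM in A-485 zygotes and 0.39 and 0 at early 2-cell, and with DMSO it rose from 1.75 and 0.77 to 231 and 196. Its reads are partly shared with near-identical copies. Zscan4c, at 1.25 and 1.12, then 0.91 and 0.32 FPKM with A-485, reached 82.8 and 83.7 with DMSO. Its reads were not counted as shared, but only A-485 libraries were used for that, so sharing in the DMSO libraries was not assessed. Taf1d, a subunit of the RNA polymerase I selectivity factor, had 85.2 and 66.1 FPKM in A-485 zygotes and 56.2 and 51.7 at early 2-cell, and 180 and 160 at early 2-cell with DMSO. Fundc1, a receptor for the removal of mitochondria, had 14.6 and 14.7, then 17.7 and 19.1 FPKM with A-485, and reached 144 and 146 with DMSO. Set, a histone chaperone that binds acetyltransferases, had 11.0 and 11.7, then 9.18 and 11.5 FPKM with A-485, and reached 132 and 100.2 with DMSO. For Taf1d, Fundc1 and Set the RNA was therefore present before the transition and its share stayed near the zygote level.

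Genes that mark 2-cell embryos, a list of 50 from the Dux, Zscan4, Usp17l, Zfp352, Tdpoz and Obox families and others, were divided between the classes. Of 40 tested with A-485, 10 rose and 7 fell (25.0% and 17.5%), with a median of 1.304 (-0.40 with mitochondrial scaling). The share of falls was near the 15.6% over all genes tested, of which 6.85% rose. With DMSO 38 of 48 rose and the median was 6.62. The interaction was lower with A-485 for 22 of 48 and higher for 1, beside 3.69% and 0.313% of all genes. In 14 the rise was lost, in 3 it was smaller and in 6 it was called in both with no called difference. A further 13 rose with DMSO only without a called difference. Genes of the list that rose with DMSO and fell with A-485 are not among these. Tdpoz1, of a family of TRAF-domain genes, had 0.21 and 0.06 FPKM in A-485 zygotes and 0 and 0.03 at early 2-cell, and 20.2 and 29.9 at early 2-cell with DMSO. Obox6 rose with A-485, from 0 and 0.03 FPKM to 1.56 and 0.94, and with DMSO from 0.09 and 0.30 to 25.5 and 21.2. Spz1, a bHLH-Zip factor, rose from 0.05 and 0.02 FPKM to 1.97 and 1.99 with A-485, and from 0.42 and 0.46 to 18.1 and 12.8 with DMSO. In these low genes a rise relative to a zygote level near 0 went with an early 2-cell level well under that of DMSO embryos. Obox5, an abundant oocyte homeobox RNA, went from 758 and 786 FPKM to 1699 and 1591 with A-485, close to 1595 and 1535 with DMSO; with mitochondrial scaling its change turned to -0.38.

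In 78 genes the rise was called in both treatments and was smaller with A-485. Their median log2 change was 2.14 with A-485 and 4.56 with DMSO. Mt2, a metallothionein that binds zinc and copper, went from 1.87 and 3.42 FPKM to 25.6 and 24.6 with A-485 and from 1.67 and 1.3 to 63.1 and 49.1 with DMSO. Its difference of -1.95 lost its call without any 1 of 6 of the 8 libraries, at values of -2.296 to -1.346. Mt1, another metallothionein on chromosome 8, went from 1.71 and 2.08 FPKM to 15.4 and 8.96 with A-485 and to 74.5 and 54.2 with DMSO. Hmgn5, a nucleosome-binding protein, went from 18.1 and 18.9 FPKM to 46.5 and 35.8, where DMSO reached 106 and 109. H2afz, the histone variant H2A.Z, went from 14.9 and 9.27 FPKM to 27.7 and 27.02, where DMSO reached 47.9 and 45.0. The rises of Hmgn5 and H2afz, 1.35 ± 0.13 and 1.62 ± 0.20 on the log2 scale, turned to -0.36 and -0.08 with mitochondrial scaling. Usp17lc, a deubiquitinase gene of a multicopy family, went from 0.53 and 0.59 FPKM to 5.05 and 4.59 with A-485 and from 4.01 and 3.99 to 94.6 and 71.7 with DMSO. The A-485 early 2-cell level of Usp17lc was thus near the DMSO zygote level. Hexim1, an inhibitor of the elongation factor P-TEFb, went from 0.47 and 0.68 FPKM to 4.90 and 3.54, and to 27.3 and 31.7 with DMSO. Zfp352 went from 0 and 0.17 FPKM to 1.28 and 1.52, and to 122 and 112 with DMSO. Its difference of -3.00 turned to 2.12 when A-485 zygote replicate 2, the library with its 0.17 FPKM, was left out, so the sign of that difference rests on 1 library.

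Rises called in both treatments without a called difference numbered 631, with median log2 changes of 1.79 and 1.77. Their median FPKM was 1.55 in A-485 zygotes and 5.195 at early 2-cell, against 1.605 and 9.82 with DMSO. The lack of a called difference does not show that their changes were equal. With mitochondrial scaling 151 of the 631 were still called higher and none lower. Of the 384 lost rises none was then higher and 171 were lower. That scaling moved the median A-485 change by -1.70, so this contrast largely follows from how the classes were defined. Of the 631, 23.3% had a single exon and their median length was 7.97 kb, against 9.2% and 22.4 kb over the 12460 genes with at least 1 FPKM. The lost rises stood at 11.7% and 11.2 kb, and the falls in both at 2.8% and 21.9 kb. The undecided rises stood at 25.1% and 6.37 kb (called with DMSO) and 21.7% and 14.7 kb (called with A-485). A high single-exon share was therefore not particular to the 631.

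Histone genes were prominent among the largest rises with A-485, and they were gathered as a group after these values were seen, by the symbol prefix Hist. Of 68 tested, 40 rose and 1 fell with A-485 (58.8% and 1.5%), beside 6.85% and 15.6% of all genes tested. The median was 1.67 (-0.06 with mitochondrial scaling), and with DMSO 44 rose and the median was 1.58. The interaction was lower for 1 of 68 and higher for none. Hist1h2ak, an H2A gene, went from 0.51 and 0.33 FPKM to 18.2 and 12.5 with A-485 and from 1.20 and 2.00 to 33.7 and 31.6 with DMSO. Hist1h1b, a linker histone gene, went from 0.63 and 0.17 FPKM to 12.95 and 8.72, and from 1.69 and 0.63 to 15.9 and 19.6 with DMSO. Their log2 changes with A-485 were 5.398 ± 0.695 and 4.93 ± 0.54. Hist1h2bl and Hist1h4k also rose, by 6.18 ± 0.96 and 4.10 ± 0.86, but share reads with other histone copies. Hist1h2an was the exception with a called difference, from 8.08 and 3.54 FPKM to 35.6 and 18.8 with A-485 and from 2.20 and 2.51 to 85.2 and 88.2 with DMSO.

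Since most histone genes rose with the enzymes blocked, the same 100 bases are shown for 2 of them, on the minus strand of GRCm38.p6 at chr13:21780626-21780725 and chr13:21753913-21754012, with CCAAT and TATAAA of either strand in capitals.
Hist1h1b: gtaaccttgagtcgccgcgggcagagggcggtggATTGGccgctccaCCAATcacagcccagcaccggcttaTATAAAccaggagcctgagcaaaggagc
Hist1h2ak: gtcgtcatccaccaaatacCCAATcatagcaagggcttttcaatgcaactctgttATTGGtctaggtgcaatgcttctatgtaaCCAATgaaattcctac
In the windows of 300 bases, CCAAT was present in 52 of the 61 matched histone genes, 85.2% (Wilson interval 74.3 to 92.0%), in 34 of the 39 of them that rose with A-485, 87.2% (73.3 to 94.4%), and in 37.9% of all promoters. TATAAA was present in 35 of the 61, 57.4% (44.9 to 69.0%), in 20 of the 39, 51.3% (36.2 to 66.1%), and in 14.2% of all promoters. Both shares are thus those of histone genes in general and do not set the risers apart. CCGGAAG was in none of the 39, which allows a share of up to 9.0%. Over all 631 rises in both, CCAAT was in 45.4% and TATAAA in 11.4% of the 405 matched promoters, and over the 255 matched lost rises in 44.3% and 11.4%, beside the 39.5% and 8.7% of all genes tested.

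Most mitochondrially encoded protein genes rose. Of 13 protein genes 12 rose with A-485 and 11 with DMSO, with medians of 1.82 and 1.38; the A-485 median was 0.12 with mitochondrial scaling, which these genes define. mt-Co1, a subunit of cytochrome c oxidase, went from 1059 and 931 FPKM to 3203 and 2918 with A-485 and from 1229 and 1088 to 2771 and 2695 with DMSO. mt-Nd1 and mt-Nd4, subunits of complex I, rose by 1.84 ± 0.10 and 1.72 ± 0.07, and mt-Cytb by 1.50 ± 0.07 (-0.20 with mitochondrial scaling). mt-Atp6 was called higher in the interaction, at 444 and 687, then 2782 and 2453 FPKM with A-485 and 1098 and 1266, then 2578 and 1113 with DMSO. Its 2 DMSO early 2-cell libraries were far apart. mt-Co3 was called higher too, but its reads were split with another copy, and its difference of 3.60 lost its call with DESeq2, with all libraries in the fit and without any 1 of 5 of the 8 libraries. Among small RNAs, 31 of 59 small nuclear RNA genes and 30 of 170 small nucleolar RNA genes rose with A-485 and none fell, against 24 and 21 risen with DMSO. Over all genes tested with A-485, 6.85% rose and 15.6% fell. Many of these small RNA genes are near-identical copies whose reads cannot be assigned with certainty.

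Some regulators of later development rose from near 0 with CBP/p300 activity blocked. Of 30 tested pluripotency and first-lineage regulators 6 rose and 4 fell, with a median of 0.57 (-1.13 with mitochondrial scaling), against 13 risen and 3 fallen of 35 with DMSO. The A-485 shares were 20.0% and 13.3%, beside 6.85% higher and 15.6% lower over all genes tested. Klf5, a Krüppel-like factor of the preimplantation embryo, went from 0.05 and 0.04 FPKM to 3.60 and 4.17 with A-485 and from 0.32 and 0.29 to 11.8 and 13.6 with DMSO. Eomes, a T-box factor of the trophectoderm, went from 0.05 and 0.08 FPKM to 3.04 and 1.44, and from 0.18 and 0.18 to 5.70 and 4.14 with DMSO. Myc was at 0 counts in both A-485 zygote libraries and at 1.51 and 2.65 FPKM at early 2-cell, at least 39.3-fold higher than the floor of 3 counts per library, and with DMSO it went from 0.09 and 0.09 to 1.69 and 2.40. Klf5, Eomes and Myc were called in both treatments with no called difference. Klf4, by contrast, had 9.03 and 7.68, then 10.3 and 11.4 FPKM with A-485 and rose from 6.85 and 7.36 to 28.9 and 29.5 with DMSO. Sox2 had 1.69 and 1.89, then 2.33 and 1.82 FPKM with A-485 and reached 8.2 and 7.6 with DMSO. Gcsh, a protein of the glycine cleavage system, rose from 0.25 and 1.17 FPKM to 11.99 and 11.5, and from 1.20 and 0.85 to 40.2 and 36.3 with DMSO.

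Of 22 tested genes of the p53 response 4 rose and 4 fell with A-485 (18.2% each), and of 26 genes of the integrated stress response 2 rose and 5 fell (7.7% and 19.2%). Except for the p53 rises, these shares are near the 6.85% higher and 15.6% lower over all genes tested. The lists had medians of 0.85 and 0.02 (-0.85 and -1.66 with mitochondrial scaling). Ccng1, a p53 target, rose from 1.56 and 1.02 FPKM to 4.42 and 4.29, and Xpc, of nucleotide excision repair, fell from 17.97 and 15.9 to 3.76 and 4.28. Plk2, a Polo-like kinase, rose less with A-485, to 6.16 and 7.39 FPKM against 19.7 and 13.8, a difference of -1.11 that lost its call without any 1 of 5 of the 8 libraries, at -1.24 to -0.81. Ddit4, an inhibitor of mTORC1, fell from 22.8 and 29.1 FPKM to 2.09 and 2.41 with A-485 and only to 5.43 and 7.25 with DMSO. Ppp1r15a, the phosphatase subunit that restores translation after stress, had 26.2 and 26.7, then 33.8 and 30.0 FPKM with A-485 and rose to 95.3 and 75.1 with DMSO. Of 37 chaperones 16 fell and 6 rose with A-485 (43.2% and 16.2%), and 13 fell and 6 rose with DMSO. Bag3, a co-chaperone of Hsp70, was at 0 counts in both A-485 zygotes and at 1.19 and 0.87 FPKM at early 2-cell, at least 28.6-fold above the floor, but at 18.4 and 12.8 with DMSO.

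Rises called with A-485, not called with DMSO and higher in the interaction numbered 35, and 7 more were called in both and larger with A-485. The median FPKM of the 35 was 0.08 in A-485 zygotes and 2.17 at early 2-cell, and 0.38 and 0.45 with DMSO. Duxf3, the double homeobox factor Dux that switches on 2-cell genes, had 0.22 and 0.27 FPKM in A-485 zygotes and 4.88 and 3.57 at early 2-cell, a log2 change of 4.09 ± 0.41 with an adjusted p of 2.86e-06 in edgeR. With DMSO it had 7.23 and 6.81 in zygotes and 5.16 and 4.92 at early 2-cell, so that the early 2-cell levels of the treatments were close and the zygote levels were far apart. The difference of the log2 changes was 4.48. AW822073 followed the same course, from 0.22 and 0.25 FPKM to 3.90 and 2.05 with A-485, and from 4.64 and 3.77 to 3.81 and 4.89 with DMSO. It lies close to Duxf3 on the same strand, at chr10:58222972-58224930 beside chr10:58229979-58232675, so the 2 genes are not separate loci. In both genes the A-485 stages did not overlap.

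Gm8251 differed in another way. It rose from 0.03 and 0.03 FPKM to 3.65 and 3.57 with A-485, and with DMSO it had 0.04 and 0.10, then 0.28 and 0.23, a log2 change of 2.18 ± 0.50 under the limit of 1 FPKM, so that here the early 2-cell levels were apart. Adam1a, a metalloprotease of sperm whose reads are partly shared, went from 0 and 0.04 FPKM to 1.41 and 2.17 with A-485 and from 0.10 and 0.21 to 0.41 and 0.36 with DMSO. Tsix, the antisense RNA of Xist, was at 0 counts in both A-485 zygotes and at 2.81 and 1.71 FPKM at early 2-cell, against 0.01 and 0.28, then 0.45 and 0.62 with DMSO. Whether the counting used strand is not given in the sources used here, so reads of Xist and Tsix cannot be told apart. Cphx3 rose from 19.02 and 33.1 FPKM to 80.4 and 68.3, with DMSO values of 29.6 and 68.9, then 40.8 and 4.48, which spread too widely for its difference of 2.74 to hold without A-485 early 2-cell replicate 1 or 2, A-485 zygote replicate 1 or DMSO zygote replicate 2. Lypd1 was high in a single library, 8.87 FPKM in A-485 early 2-cell replicate 2 against 0.24 in replicate 1, and its change of 7.65 fell to 3.437, no longer called, without that library. The count of 35 itself became 19 without DMSO zygote replicate 2, 21 without DMSO zygote replicate 1 and 21 without A-485 zygote replicate 1.

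**Figure D4:**
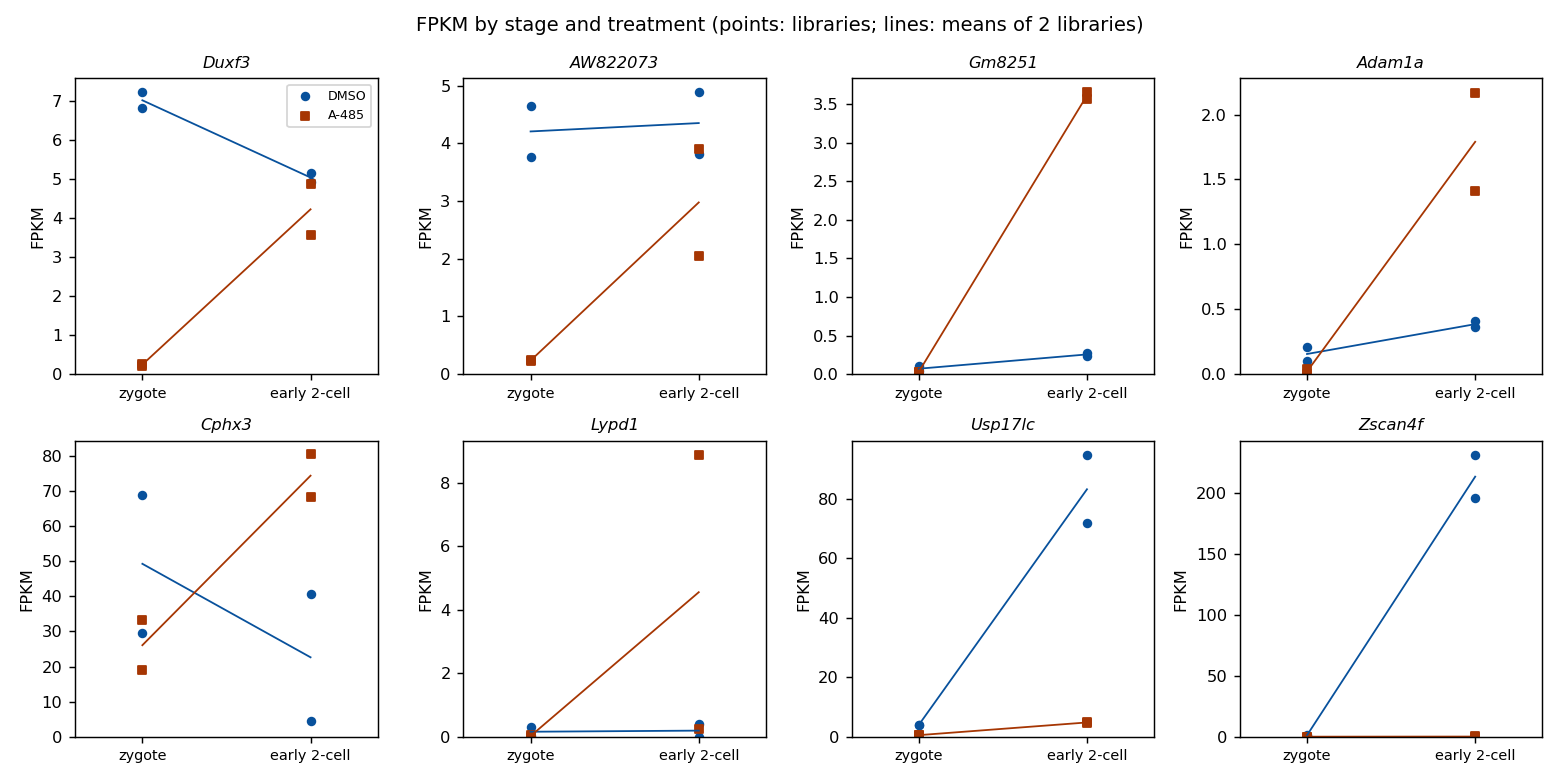
FPKM of 8 genes at zygote and early 2-cell (points, libraries; lines, means of 2 libraries) with DMSO (circles) and A-485 (squares). Duxf3 and AW822073 start near 0 with A-485 and end near the DMSO level, Gm8251 and Adam1a end above it, Lypd1 rests on 1 library, and Usp17lc and Zscan4f end far below DMSO.

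The study drew its lists of minor ZGA genes by comparing DMSO embryos of these stages with embryos given DRB, an inhibitor of transcription elongation. The DRB libraries were not analysed here. Which DMSO libraries served for the lists is not given in the sources used here, and they may be those above, so the lists are not taken as independent evidence of direction. Of 29 tested genes of its zygote list 13 rose and 1 fell with A-485 (44.8% and 3.4%), beside 6.85% and 15.6% of all genes tested. The median was 4.11, or 3.76 when the 4 genes at 0 in both A-485 zygote libraries were set at their bound. With DMSO 15 rose and 2 fell, and the median was 3.04. The summed FPKM of this list went from 32.05 and 50.4 to 78.7 and 65.35 with A-485. With DMSO it went from 66.5 and 80.95 to 608 and 594. The interaction was higher with A-485 for 4 genes of the list, Duxf3, AW822073, Gm8251 and Adam1a, and lower for 1, Usp17lc. Usp17ld, of the same family as Usp17lc, went from 0.14 and 0.23 FPKM to 1.11 and 1.35 with A-485 and from 2.35 and 3.12 to 24.1 and 23.5 with DMSO, with no called difference in the log2 change although both A-485 levels lay below both DMSO levels of the same stage. Of 441 tested genes of its early 2-cell list (558 in all), 154 rose and 27 fell with A-485, 34.9% and 6.1%, with a median of 2.30, or 2.11 with the 60 genes at 0 in both A-485 zygotes at their bound. With DMSO 487 of 558 rose and the median was 4.98. The summed FPKM of this list went from 1068 and 1040 to 1481 and 1332 with A-485. With DMSO it went from 1126 and 1128 to 15030 and 14160. The interaction was lower for 187 of the 558 and higher for 5, beside 3.69% and 0.313% of all genes. A further 211 rose with DMSO only without a called difference.

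Falls that were called with DMSO but not with A-485, and higher in the interaction, numbered 14, and 12 more were smaller with A-485. The median FPKM of the 14 was 3.63 in A-485 zygotes. Rrh, a visual pigment-like receptor, had 4.23 and 4.11, then 3.79 and 3.99 FPKM with A-485 and fell from 4.47 and 3.04 to 1.07 and 1.26 with DMSO. Tars2, the mitochondrial threonyl-tRNA synthetase, had 3.05 and 2.72, then 1.46 and 1.31 FPKM with A-485 and fell from 2.16 and 2.19 to 0.26 and 0.28. Zc3h11a, an RNA export factor, had 19.9 and 16.4, then 6.59 and 8.90 FPKM with A-485, and 23.6 and 16.1, then 12.5 and 10.7 with DMSO. Its FPKM fell at least as far with A-485 as with DMSO, whereas the counts gave log2 changes of -0.74 and -2.24, so its class rests on the scale. Xlr3b and Xpnpep3 had differences of 1.43 and 1.15 that each lost the call under most alternatives. The 14 became 33 without DMSO early 2-cell replicate 2 and 7 or 8 without either DMSO zygote library or without A-485 zygote replicate 1, so no pattern is read from them.

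Open chromatin was a separate readout that the classes did not use, as lists of ATAC-seq peaks over both replicates, at late 1-cell and at early 2-cell. The lists held 10214 peaks at late 1-cell and 27693 at early 2-cell with DMSO, and 7094 and 13712 with A-485. A peak within 1 kb of a start site was present at early 2-cell with A-485 for 55.6% of the 631 rises in both (95% Wilson interval 51.7 to 59.5%) and for 52.6% of the 384 lost rises (47.6 to 57.5%), beside 58.4% of the 12460 genes with at least 1 FPKM. In the DMSO list of that stage the shares were 47.1% (43.2 to 51.0%), 55.7% (50.7 to 60.6%) and 47.8%. The lost rises thus had about the same share in both lists, while rises in both and the genes as a whole had more with A-485, in a list with fewer peaks. The falls with A-485 only had 71.3% (65.2 to 76.7%) with A-485 and 70.0% (63.9 to 75.5%) with DMSO, and the deeper falls 73.0% and 73.9%. The 35 rises with A-485 only had shares of 40.0% (25.6 to 56.4%) with A-485 and 20.0% (10.0 to 35.9%) with DMSO. These intervals cover counting only, and each list stands for 1 pooled set of embryos. With the 7094 strongest peaks of each list, the early 2-cell shares became 34.5% and 15.4% for the rises in both and 28.9% and 10.4% for the lost rises, with A-485 and DMSO, beside 37.2% and 14.3% of the genes with at least 1 FPKM. With equal lists the share with A-485 was above that with DMSO for the lost rises as well.

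**Figure D5:**
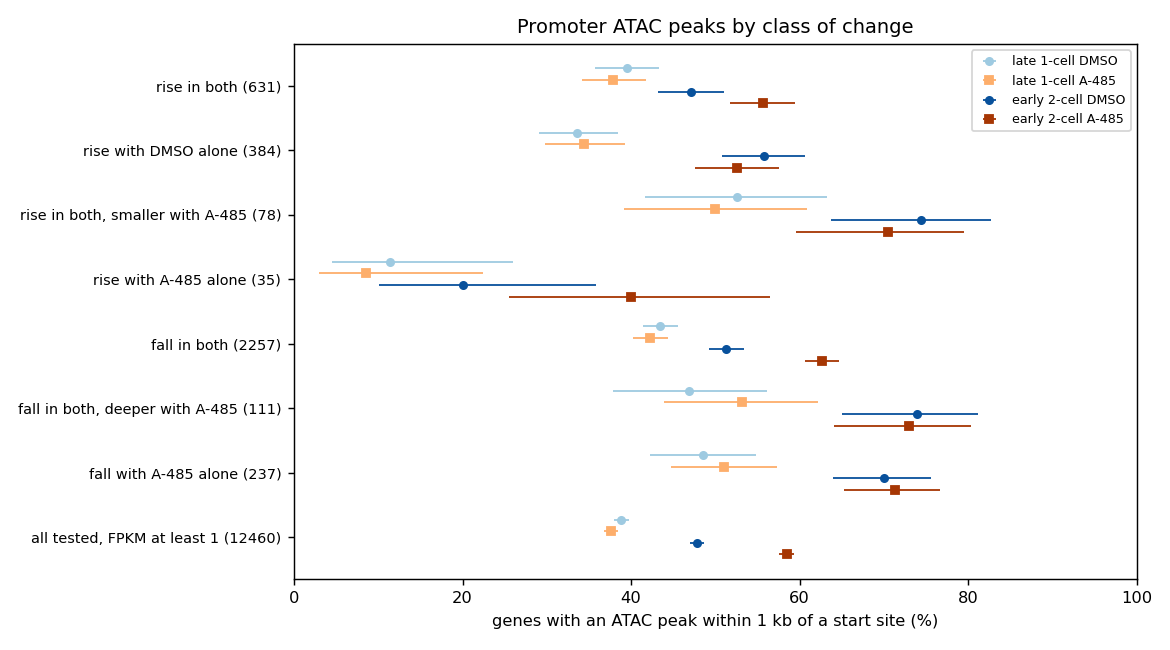
Share of genes in each class of change (number in parentheses) with an ATAC peak within 1 kb of a start site in the 4 peak lists, with 95% Wilson intervals. The 2 groups of falls that were deeper or seen only with A-485 lie near 70 to 74% in both early 2-cell lists, and the rises with A-485 only lie lowest of the classes plotted.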

How the data were processed

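RNA was measured in 4 A-485 and 4 DMSO libraries (SMART-Seq Stranded Kit). The authors trimmed reads with Trimmomatic 0.39, mapped them to GRCm38 with STAR 2.7.8a and quantified genes with RSEM 1.3.1. The authors deposited, for 55385 genes, the expected count, its posterior standard deviation (a count too) and the FPKM, normalized per effective length and mapped fragments. The authors also deposited 1 ATAC-seq peak list per stage and treatment with each peak's fold enrichment, the ratio used here to rank peaks.

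Identifiers were matched to GENCODE M21 (55144 genes) and promoters to RefSeq by symbol. Expected counts were rounded and tested with edgeR 4.0.16 (TMM, at least 10 counts summed, quasi-likelihood F test, Benjamini-Hochberg). On simulated counts of the A-485 comparison, 83 of 100 2-fold and 98 of 100 4-fold changes were recovered with 4 false calls among 18664 unchanged genes. For the interaction 65 and 92 of 100 were recovered. Recovery here needed only the right sign and an adjusted p under 0.05, in genes with a mean of at least 100 counts. The fold and FPKM limits were not applied. The median fitted log2 value of the 2-fold A-485 changes was 0.984, so the calls used above recover fewer of them. Reads were called shared where the posterior standard deviation exceeded 0.1 of the count, in the A-485 libraries of the stage with the higher A-485 level. DMSO libraries were not assessed for this. Alternatives were DESeq2 1.42.0, other scalings, filters, library omissions and a replicate block.

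Named genes were, per direction, the 8 largest called changes at 10 FPKM or more without overlap, the 5 most abundant of each class, up to 4 of each list with the largest called changes, and Crebbp, Ep300, Duxf3, Usp17lc and Usp17ld, with protein-coding and symbol filters. Zscan4c, Zscan4d, Tdpoz1, Obox3, Obox5, Mt1, Sox2, Klf4, Tsix, Ppp1r15a and Adam1a were chosen after their values were seen. 1 gene that the rule names is not reported here. Members and lists were chosen with earlier results of these data known. The study's major ZGA and maternal decay lists were held in part and not used.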

Additional observations from a re-analysis of the deposited data

Results flagged for a closer look

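Over the 8 libraries, the change from zygote to early 2-cell differed between A-485 and DMSO, by the interaction in edgeR, for 849 genes with a lower value and for 72 with a higher value. The differences of the log2 changes (A-485 minus DMSO) of the named genes follow. Genes of ribosomes, nucleoli, transcription and RNA processing had lower values: Gnl2 (-1.41), Znhit6 (-1.68), Nop58 (-1.94), Ddx56 (-1.91), Polr1e (-1.66), Polr2k (-2.24), Gtf2f1 (-2.68), Taf1d (-1.46), Rpl19 (-1.36), Rpl23a (-2.44), Rpl24 (-1.82), Rpl21 (-2.10), Rplp0 (-1.60), Eif3c (-1.94) and Snrpa1 (-2.14). So did genes of 2-cell embryos: Zscan4f (-6.40), Zscan4c (-7.44), Zscan4d (-7.92), Tdpoz1 (-12.1), Obox3 (-5.36), Usp17lc (-1.21) and Zfp352 (-3.00). Cphx1 (-3.65) and Sp110 (-1.19), abundant in zygotes and lower at early 2-cell in both treatments, had lower values as deeper falls. Other genes with lower values were Fundc1 (-2.77), Set (-2.68), Hmgn5 (-1.22), H2afz (-1.14), Hist1h2an (-2.84), Mt2 (-1.95), Klhl11 (-1.89), Calr (-1.04), Atpif1 (-1.86), Hexim1 (-1.94), Psmd12 (-1.40), Hspa8 (-1.82), Fbxo5 (-1.71), Cdc6 (-1.25), Plk2 (-1.11), Ddit4 (-1.85), Mt1 (-2.66), Sox2 (-2.23), Klf4 (-1.61) and Ppp1r15a (-1.62).

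Higher values were called for mt-Co3 (3.59), mt-Atp6 (1.65), Cphx3 (2.74), Lypd1 (7.25), Duxf3 (4.48), AW822073 (3.94), Zc3h11a (1.46), Xlr3b (1.43), Rrh (2.01), Xpnpep3 (1.15), Tars2 (2.39), Gm8251 (4.63), Tsix (8.95) and Adam1a (5.01). Lypd1, Cphx3, mt-Co3, Xlr3b and Xpnpep3 each lost this call without some single libraries, and the reads of Adam1a, Cphx3 and mt-Co3 are partly shared with other genes.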

How the results depend on the processing

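With mitochondrial scaling, rises with A-485 were 289 and falls 9491, rises with DMSO 1270 and falls 8196, and lower differences 1409; classes became 123 (rises in both), 29 (smaller rises), 20 (rises with A-485 only), 7249 (falls in both), 428 (falls with A-485 only) and 560 (deeper falls). Under it Taf1d (-1.63), Fundc1 (-1.11), Rplp0 (-1.64), Hmgn5 (-0.36), H2afz (-0.083), Klhl11 (-0.41), mt-Cytb (-0.20), Obox5 (-0.38), Xlr3b (-1.28), Rrh (-1.24), Xpnpep3 (-1.63), Sox2 (-1.30), Klf4 (-1.16), Ppp1r15a (-1.45), Crebbp (-0.98), Zscan4f (-0.72), Obox3 (-0.42) and Ep300 (-1.28) changed sign. Without the FPKM limit 2648 genes rose with A-485, 1106 in both and 59 with A-485 only. Without the count filter there were 125 higher differences, 54 rises with A-485 only and 29 lost falls. At a 4-fold limit the classes held 240 rises in both, 42 smaller rises, 728 falls in both and 26 deeper falls. With all libraries in the fit there were 7 lost falls, 5 of them among the 14. DESeq2, total counts and DESeq2 size factors left every count within 1.5 times.

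The replicate numbers did not pair the libraries, since same-numbered deviations correlated at -0.023 to 0.036. With the replicate block 1352 genes rose and 3159 fell with A-485, 125 differences were higher and 30 falls were lost.

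Leaving out 1 library gave 1291 to 1390 rises and 2886 to 3108 falls with A-485, 2041 to 2309 and 2737 to 3120 with DMSO, and 35 to 105 higher and 648 to 856 lower differences. Classes ranged over 572 to 638 rises in both, 287 to 379 lost rises, 62 to 81 smaller rises, 19 to 34 rises with A-485 only, 2169 to 2234 falls in both, 7 to 33 lost falls, 186 to 256 falls with A-485 only and 81 to 124 deeper falls. Higher differences were 43 without A-485 zygote replicate 1, 41 without DMSO zygote replicate 1 and 35 without DMSO zygote replicate 2. The difference of Zfp352 ranged from -3.98 to 2.12, the higher value without A-485 zygote replicate 2.

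For promoter peaks, a distance of 500 bp gave 57.4% and 45.2% of all genes with at least 1 FPKM (A-485, DMSO). The strongest 7094 peaks gave 34.5% and 15.4% of rises in both, 28.9% and 10.4% of lost rises and 37.2% and 14.3% of all. The cause of these changes was not tested. Depth limits the low genes, since folds from a zygote level near 0 rest on few counts.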
